A study of Mus musculus with 2 samples.

Results

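The 4 EGR transcription factor genes (Egr1, Egr2, Egr3 and Egr4) and the genes of their NAB corepressors (Nab1 and Nab2) were examined for open chromatin in mouse frontal cortex. The 6 genes were taken from a list by name, out of 21938 protein-coding genes of GENCODE M21. Called peaks and footprints were collected over each gene and its 50 kb flanks, and those within 500 bp of a transcription start site (TSS) were separated from distal ones. The data are DNase-seq, in which DNase I cuts nuclear DNA where it is not covered by nucleosomes, and places with many cuts are called as peaks. The single group is frontal cortex tissue of 36-day-old female B6CASTF1/J mice, F1 hybrids of B6 and CAST, and the labels give no treatment and no other condition. It has 2 biological replicates from separate tissue records that carry the same donor label, and the labels do not say whether 1 or more animals were used. The replicates therefore measure the spread between these 2 libraries, which may be technical. The tissue holds many cell types, so a peak open in few cells and one open weakly in many cannot be told apart.

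EGR proteins are zinc finger transcription factors that bind GC-rich sites in DNA. Egr1, Egr2, Egr3 and Egr4 are immediate early genes, switched on within minutes by growth factors and by synaptic activity through serum response factor (SRF) and CREB, and in the cortex Egr1 is used as a marker of recently active neurons. NAB1 and NAB2 bind EGR1, EGR2 and EGR3, recruit the chromatin remodelling complex NuRD and lower transcription of EGR target genes, and Nab2 is itself an EGR target, which makes a feedback loop.

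The peak lists had unequal lengths. The shorter of the deposited lists held 66512 peaks in replicate 2 and 29700 in replicate 1, and the longer list held 117579 and 56015. The shorter list is used below unless the longer one is named. The signal of a peak is the authors' read-depth normalized density, and its percentile is the share of peaks in the same list with the same or a lower signal. The shorter list is not the longer one cut at a fixed signal. Around Nab2 in replicate 1 it held a longer-list peak of 0.601 and lacked one of 1.76. Library depth was unknown from these files, so no counting interval is given. As a check of the tissue, promoters of 3 of 8 forebrain and cortical neuron markers were open in both replicates (Camk2a, Neurod6 and Tbr1). A further 4 were open in replicate 2 alone, and Slc17a7 in neither. Over all protein-coding genes 50.8% were open in both replicates and 60.0% in replicate 2. The count in both replicates thus does not set these markers apart. None of the 4 hindbrain markers was open in either replicate. Of the 3 liver markers 1 (Alb) was open, with a signal of 0.379 in replicate 2.

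The promoter sequences that carry the results below are shown first. RefSeq promoter windows on GRCm38.p6, from 250 bases before to 50 bases after an annotated start, matched Egr2, Egr4, Nab1 and Nab2, but not Egr1 or Egr3. Each is written 5′ to 3′ on the strand of the gene, and capitals mark bases inside a footprint, a short stretch protected from cutting within an open region, called by the authors in either replicate. Egr2 has several starts, and its first start (chr10:67535249-67535548, plus strand) is shown beside the internal ones (chr10:67537316-67537615 and chr10:67537619-67537918). The reason is that peaks of the shorter list overlapped only the internal windows.
Egr2 first start: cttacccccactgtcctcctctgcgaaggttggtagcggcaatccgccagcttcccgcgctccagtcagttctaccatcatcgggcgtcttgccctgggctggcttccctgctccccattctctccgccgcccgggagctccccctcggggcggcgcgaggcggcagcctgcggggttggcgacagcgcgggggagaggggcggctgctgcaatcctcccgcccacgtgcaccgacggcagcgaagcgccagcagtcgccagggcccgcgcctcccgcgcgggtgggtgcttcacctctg
Egr2 internal start 1: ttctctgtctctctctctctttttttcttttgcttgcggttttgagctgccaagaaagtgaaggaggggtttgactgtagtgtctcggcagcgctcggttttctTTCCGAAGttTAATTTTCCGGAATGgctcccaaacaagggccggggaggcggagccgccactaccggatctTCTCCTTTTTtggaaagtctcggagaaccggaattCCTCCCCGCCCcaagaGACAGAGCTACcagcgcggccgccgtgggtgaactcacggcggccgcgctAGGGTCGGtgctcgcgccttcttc
Egr2 internal start 2: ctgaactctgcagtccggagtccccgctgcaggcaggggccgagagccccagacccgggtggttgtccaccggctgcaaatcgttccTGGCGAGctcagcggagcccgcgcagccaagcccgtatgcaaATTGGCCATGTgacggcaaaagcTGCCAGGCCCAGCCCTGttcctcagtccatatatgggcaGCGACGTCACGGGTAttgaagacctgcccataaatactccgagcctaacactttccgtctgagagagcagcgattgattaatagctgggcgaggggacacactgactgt

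The Egr4 window (chr6:85513540-85513839, minus strand) is shown for its long footprints, and the Nab1 window (chr1:52500399-52500698, minus strand) for its base composition and EGR sites. The Nab2 window (chr10:127666654-127666953, minus strand) is shown for its footprints around an internal start. The first annotated Nab2 start, at 127668568, lies outside this window and has no RefSeq window here.
Egr4: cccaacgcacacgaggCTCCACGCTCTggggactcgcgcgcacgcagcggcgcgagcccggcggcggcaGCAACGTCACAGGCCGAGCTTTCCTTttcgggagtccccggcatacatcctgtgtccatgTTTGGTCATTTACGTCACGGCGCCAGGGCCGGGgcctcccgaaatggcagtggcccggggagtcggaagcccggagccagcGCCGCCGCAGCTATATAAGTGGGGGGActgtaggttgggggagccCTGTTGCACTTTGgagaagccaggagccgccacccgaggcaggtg
Nab1: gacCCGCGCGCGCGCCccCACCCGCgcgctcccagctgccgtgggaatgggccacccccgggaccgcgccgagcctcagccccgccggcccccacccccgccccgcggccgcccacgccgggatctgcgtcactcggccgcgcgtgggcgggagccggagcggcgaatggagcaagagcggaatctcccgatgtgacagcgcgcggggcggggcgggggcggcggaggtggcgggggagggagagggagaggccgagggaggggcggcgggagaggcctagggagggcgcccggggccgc
Nab2: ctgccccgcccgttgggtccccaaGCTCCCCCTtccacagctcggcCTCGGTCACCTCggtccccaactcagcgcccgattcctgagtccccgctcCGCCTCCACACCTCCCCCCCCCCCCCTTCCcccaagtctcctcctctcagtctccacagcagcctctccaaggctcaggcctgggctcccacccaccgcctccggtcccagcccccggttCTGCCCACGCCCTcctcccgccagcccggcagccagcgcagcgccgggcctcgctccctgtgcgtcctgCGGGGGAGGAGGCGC

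In these windows, footprints covered 110 bases at Egr4 in replicate 2 and 18 in replicate 1, and all 18 were among the 110. At the internal start of Nab2 they covered 77 bases in replicate 2 and 16 in replicate 1, with 14 in common. At the first internal start of Egr2 they covered 58 bases in replicate 2 and 14 in replicate 1, with 9 in common. At the second they covered 26 bases in replicate 2 and 24 in replicate 1, with 0 in common. The Nab1 window had 20 footprint bases in replicate 2 and 0 in replicate 1, and the first start of Egr2 had 0 in both. The Nab1 window was 81.7% G and C with 46 CpG dinucleotides, and that of Egr4 67.7% with 30, where the median of the 32851 RefSeq windows was 52.7% with 7.

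Short binding motifs were searched as exact letters on both strands, and positions count from the start of transcription to the leftmost base of the match. The short form of the cAMP response element (CRE), TGACG, lay at -177 and -109 in the Egr4 window. All 5 bases of both lay inside a footprint of replicate 2, and 4 of those at -109 also inside one of replicate 1. In the second internal Egr2 window the short CRE at -55 lay wholly inside a footprint of replicate 2. Another at -111 had 1 of 5 bases inside one. The Nab1 window held a short CRE at -123, outside any footprint. At -72 the second internal Egr2 window held a CArG box, the SRF binding site, outside any footprint. The first internal Egr2 window held another CArG box at -72, of which 7 of 10 bases lay inside a footprint of replicate 2. Of all 32851 windows 20.8% held the short CRE and 1.63% a CArG box. The full CRE, TGACGTCA, was in none of the 8 windows of these 4 genes (1.79% of all windows). Nor were the ETS site CCGGAAG (8.86%), TATAAA (13.6%) or a MEF2 site (0.56%). The letters TGANTCA, with N as any base, a looser form of the AP-1 site, were also absent (7.81% of all windows).

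The EGR site GCGNGGGCG is the sequence that EGR proteins bind. It was found in the Nab1 window at -141, -109 and -38, all outside footprints, and in no window of Egr2, Egr4 or Nab2, where 5.55% of all windows held it. The GC box GGGCGG, which overlaps some EGR sites, was in windows of Nab1, Nab2 and Egr2 and in 35.7% of all windows. CCAAT (37.4% of all windows) and the E-box CACGTG (7.15%) were each in windows of Egr2 alone among the 4 genes. Matches describe the letters of the reference and are not measured binding.

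Promoters of the EGR genes and Nab2 were open in both replicates, and that of Nab1 in replicate 2 alone. The count of 5 of 6 in both replicates stands beside 50.8% of all protein-coding genes, and the 6 of 6 in replicate 2 beside 60.0%. With the longer list all 6 had a promoter peak in both replicates, beside 57.9%. A promoter peak was thus the state of at least 50.8% of genes, and with 6 members the counts are descriptions.

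Egr1 had the strongest promoter of the 6 in both replicates. It lies on the plus strand at chr18:34859823-34864984 (mm10, as for all positions here). Its 2 annotated starts, at 34859823 and 34861207, each had a peak. At the first start the peak reached 7.00 in replicate 2 and 3.93 in replicate 1 (chr18:34859841-34860120 in both). At the second, where the start itself lay inside the peak, it was 7.50 in replicate 2 and 3.61 in replicate 1. The 2 libraries thus differed in which start had the higher peak. The higher value was at or above that of 93.9% of the genes with a promoter peak in replicate 2 and of 90.5% in replicate 1. Between the starts a further peak with a signal of 3.69 was called in replicate 2 alone, and the longer list of replicate 1 had one of 1.56 there.

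Egr3 (chr14:70077203-70082614, plus strand) and Egr4 (chr6:85511121-85513589, minus strand) followed. The highest promoter peak of Egr3, a factor needed for muscle spindle formation and induced by activity in the cortex, reached 4.59 in replicate 2 and 2.04 in replicate 1, at -0.30 kb from the first start. Egr4 has 1 annotated start, which lay inside its peak, which reached 4.11 in replicate 2 and 2.16 in replicate 1. These were at or above 66.8% and 59.3% of the open genes in replicate 2, and 42.8% and 46.9% in replicate 1. Egr3 was above Egr4 in replicate 2 and below it in replicate 1, so their order did not hold between libraries.

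Egr2 (chr10:67535475-67542188, plus strand), Nab2 (chr10:127660918-127668568, minus strand) and Nab1 (chr1:52457294-52500679, minus strand) were lower. Egr2, which outside the brain drives myelin genes in Schwann cells, had its highest peak just before the internal starts, at 2.29 kb into the gene in replicate 2, reaching 2.62 in replicate 2 and 1.79 in replicate 1. The peak just upstream of it reached 2.34 in replicate 2 and 1.70 in replicate 1. Weaker peaks within 500 bp of other Egr2 starts had 1.47, 0.845 and 1.18 in replicate 2, and 1 of 0.742 was called in replicate 1. Its first annotated start, chr10 position 67535475, had no shorter-list peak within 500 bp in either replicate. The longer list of replicate 2 had one of 0.670 over it. Nab2 reached 2.19 in replicate 2, just before its first start. There the shorter list of replicate 1 had no peak and the longer one had 1.08. In replicate 1 its highest value, 1.19, stood at 2 peaks, where replicate 2 had 1.87 and 1.96. The first of them lay just inside the gene next to the first start, with its midpoint in an intron at 0.22 kb. The second lay near the internal starts. The first start thus had a shorter-list peak within 500 bp in both replicates. Nemp1, a nuclear envelope protein gene on the other strand, overlaps the 5′ part of Nab2 and starts there too, so peaks there cannot be assigned to 1 of these genes. Nab1 had peaks of 1.54 and 1.14 in replicate 2 and none in replicate 1, where the longer list gave 1.15, close to the 1.19 of Nab2. Egr1 was first in both replicates, Egr3 and Egr4 came next, and Egr2, Nab2 and Nab1 followed in that order.

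**Figure D1:**
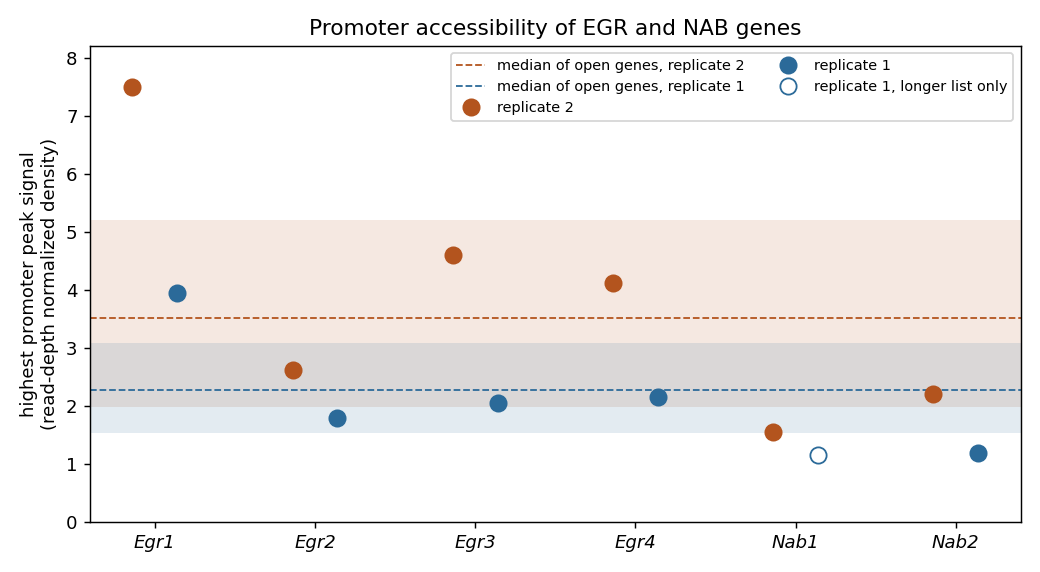
Highest own-promoter peak signal of each gene (y axis, read-depth normalized density) in replicate 2 and replicate 1. Filled points are the shorter list and the open point is Nab1 in the longer list of replicate 1. Dashed lines and bands are the median and quartiles over all protein-coding genes with a promoter peak. Egr1 lies above both bands, and Egr2, Nab1 and Nab2 lie below the medians. Egr3 and Egr4 lie above the median in replicate 2 and below it in replicate 1.

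All 5 genes with a promoter peak in both libraries had the higher signal in replicate 2. The log2 ratio of replicate 2 to replicate 1 was 1.17 for Egr3, 0.93 for Egr1 and Egr4, 0.88 for Nab2 and 0.55 for Egr2, with a median of 0.93 (SD 0.22 over the 5 genes). Over the 11152 genes open in both replicates the median was 0.79 with quartiles of 0.61 and 0.97, and 99.1% were higher in replicate 2. The shift at these genes was therefore of the size seen across promoters in these libraries, with Egr3 above and Egr2 below the quartiles. For Egr1 and Nab2 the highest peaks of the 2 libraries lay at different places. Taken at the same place, the log2 ratio was 0.83 at the first Egr1 start, 1.06 at the second and 0.66 at the Nab2 peak just inside its first start. With the mean over the promoter peaks of a gene the median was 0.26 and Egr3 was at -0.23, where replicate 2 had 5 promoter peaks and replicate 1 had 1.

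The 6 windows together held 72 peaks in replicate 2 and 31 in replicate 1. In replicate 2, 23 were at a promoter of the gene itself, 13 at a promoter of a neighbour and 36 distal. In replicate 1 the counts were 10, 8 and 13. In replicate 1, 29 peaks (93.5%) had a partner in the other library, where 92.5% of its whole list did. In replicate 2 it was 28 (38.9%), where 40.7% of the whole list did. Neighbours with a promoter peak were Reep2 near Egr1, Ado near Egr2, Bin3 and Gm33524 near Egr3, Fbxo41 near Egr4, and Lrp1, Stat6, Nemp1 and Gm16230 near Nab2. In each list, neighbouring rows that overlap each other (3 pairs in replicate 2 and 1 in replicate 1) were counted as deposited.

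**Figure D2:**
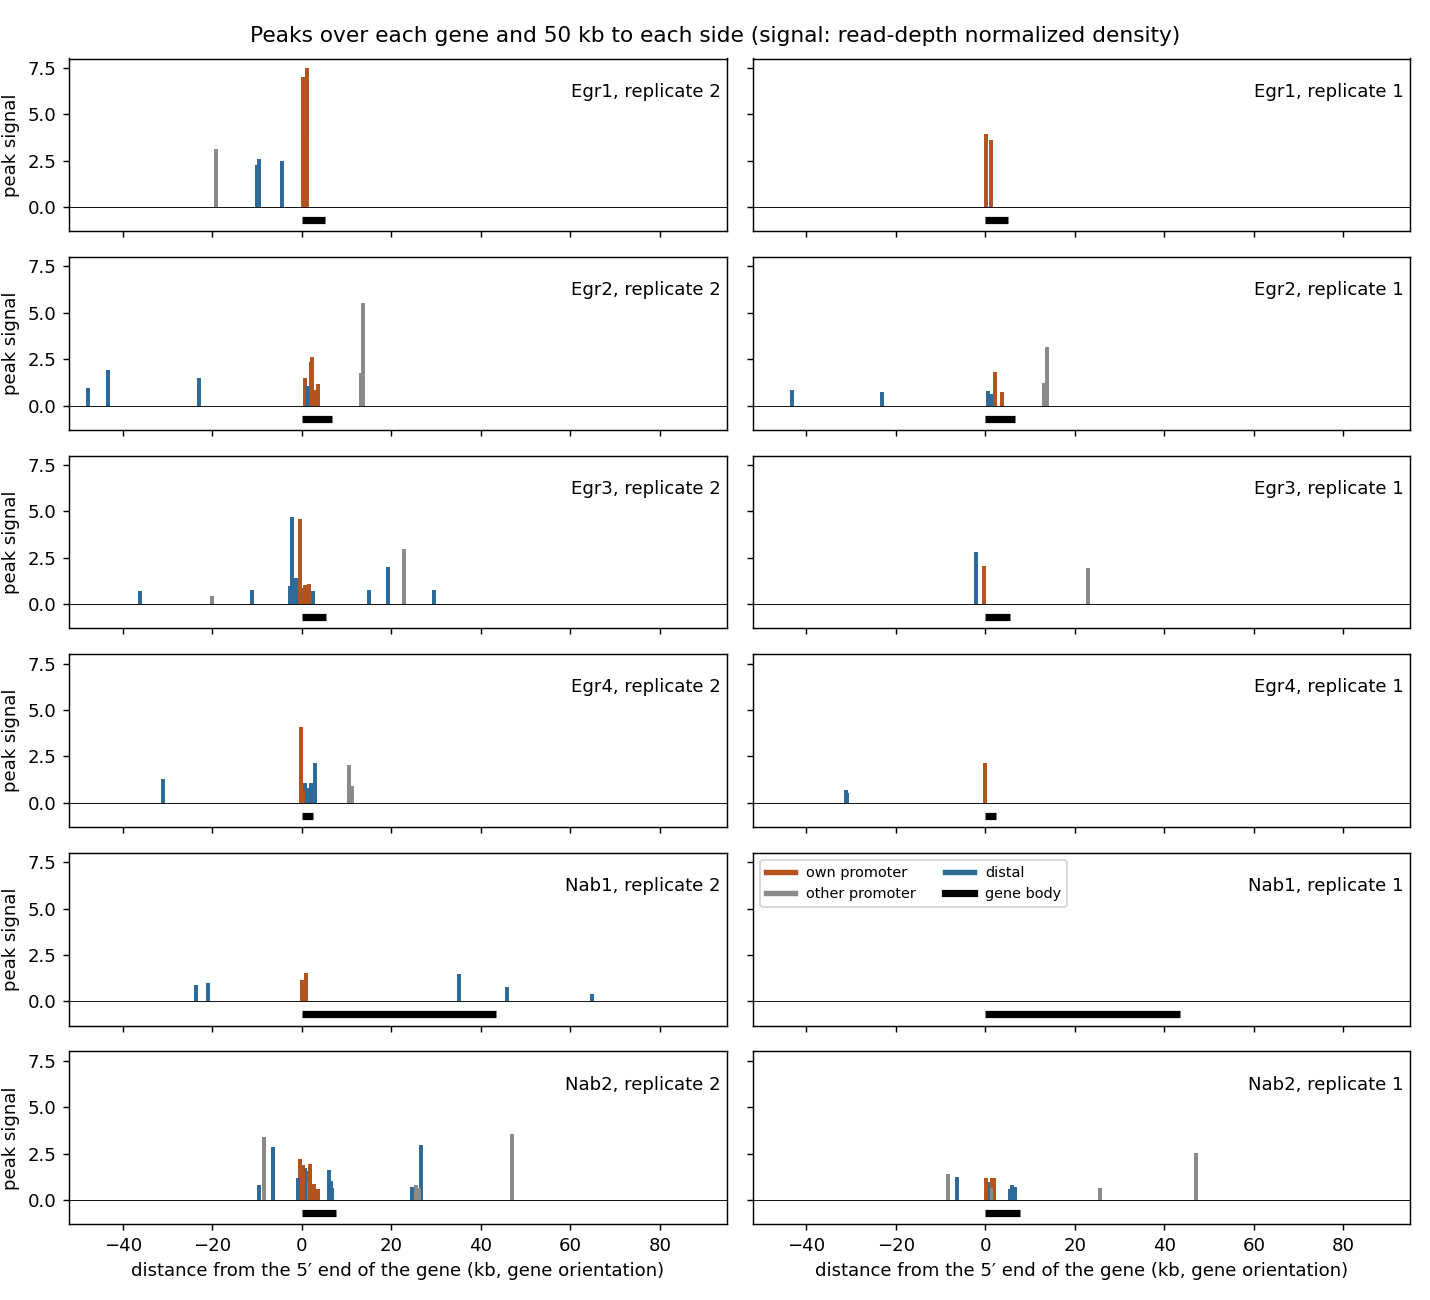
Every peak of the shorter list over the 6 genes and 50 kb to each side, in replicate 2 on the left and replicate 1 on the right. The x axis is the distance of the peak midpoint from the 5′ end of the gene in its own direction (kb), the y axis is the peak signal (read-depth normalized density), and colours give the peak class. Peaks flank Egr2, Egr3 and Nab2 on both sides in both replicates, and the Nab1 panel of replicate 1 is empty.

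Distal peaks shared by both replicates lay near 4 of the 6 genes, beside 55.9% of all protein-coding genes. All 6 had a distal peak in replicate 2, beside 80.7%. Counted over replicate 1 peaks, 12 distal peaks were shared, 5 of them at Nab2, 4 at Egr2, 2 at Egr4 and 1 at Egr3, while Egr1 and Nab1 had none. Of the 4 at Egr2, the one at 0.68 kb had its partner counted as a promoter peak in replicate 2. The median over the 6 genes was 5 distal peaks in replicate 2 and 1.5 in replicate 1, where over all genes it was 3 and 1.

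The shared distal peak of highest rank lay upstream of Egr3. Distances are from the 5′ end of the gene to the peak midpoint, negative upstream. At chr14:70074881-70075200 in replicate 2, at -2.16 kb, its signal was 4.69 in replicate 2 (percentile 93.5) and 2.84 in replicate 1 (percentile 87.3). These are above the highest promoter peak of Egr3 itself in both libraries. It held 7 footprints in replicate 2 and 3 in replicate 1. The distal peak at 19.28 kb, toward Bin3, reached 2.02 in replicate 2, and in replicate 1 it was in the longer list alone (1.39).

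Egr2 had 2 intergenic distal peaks in both replicates, far upstream of the gene. The one at -43.21 kb had 1.94 in replicate 2 and 0.825 in replicate 1. The one at -23.05 kb had 1.48 in replicate 2 and 0.754 in replicate 1. A further shared peak in the intron, at 1.46 kb, had 1.07 in replicate 2 and 0.636 in replicate 1. The strongest peak of the window belonged to the neighbour Ado, a thiol dioxygenase gene, at 5.51 in replicate 2 and 3.16 in replicate 1. No peak of the shorter list lay between Ado and the downstream end of the window. The upstream peak with the higher signal (chr10:67492161-67492360, GRCm38, plus strand, capitals as above) is shown because it was the best ranked distal peak of the gene. It holds CCAAT and a match to the searched letters TGANTCA, which reads TGATTCA here. The share of distal peaks with such matches was not computed.
Egr2 upstream peak: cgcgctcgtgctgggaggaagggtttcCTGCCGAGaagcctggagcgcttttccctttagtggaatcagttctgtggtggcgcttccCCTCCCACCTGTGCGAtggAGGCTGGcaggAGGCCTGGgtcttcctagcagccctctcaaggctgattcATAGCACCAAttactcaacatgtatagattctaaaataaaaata

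Nab2 had the densest window, with 21 peaks in replicate 2 and 14 in replicate 1. Stat6, Lrp1 and Nemp1 share this window, and of its peaks 6 in replicate 2 and 5 in replicate 1 were at promoters of these neighbours or of the antisense gene Gm16230. The best ranked shared distal peak, chr10:127674921-127675000, reached 2.85 in replicate 2 and 1.25 in replicate 1. It lies in an exon of Gm16230, and 55.0% of its bases are marked as repeats in the reference. The peak in an intron of both Nab2 and Nemp1, at 0.69 kb, reached 1.72 in replicate 2 and 0.966 in replicate 1. An intronic cluster around 6.16 kb had signals up to 1.64 in replicate 2, with 10 footprints in that peak, and up to 0.825 in replicate 1.

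Egr4 had 1 shared distal region, at -31.04 kb, which reached 1.31 in replicate 2 and 0.719 or less in replicate 1. Just past the 3′ end of Egr4, at 2.91 kb, replicate 2 had a peak of 2.17 and the longer list of replicate 1 one of 1.13. Nab1 had 5 distal peaks in replicate 2, the highest of 1.46 within its own gene at 35.17 kb, and no peak of any class in its window in replicate 1. An empty window in replicate 1 was found for 19.3% of all protein-coding genes. The longer list of replicate 1 held 5 peaks there, 3 of them at the promoter with signals of 0.825, 1.15 and 0.836.

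The lack of shared distal peaks around Egr1 depended on the list. Replicate 2 had 3 distal peaks, at -4.36, -9.52 and -9.96 kb, with signals of 2.46, 2.58 and 2.24. The longer list of replicate 1 had partners for the peaks at -4.36 and -9.52 kb, with signals of 1.57 and 1.51. A longer-list peak is counted here as in the shorter list when it overlaps a peak of that list. Of the 10 longer-list peaks of replicate 1 around Egr1, 2 were in the shorter list, and the other 8 had signals from 1.15 to 1.57. Of all 6966 longer-list peaks of replicate 1 with signals in that range, 84.3% were in the shorter list. At Egr2 a longer-list peak of replicate 1 with a signal of 0.660 was counted as in it, through a peak of 24 bp with 0.636. Why peaks from 1.15 to 1.57 near Egr1 missed the shorter list was not tested, and the range of signals was chosen after the values were seen.

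The cleavage rate tables gave a second reading that does not rest on peak edges. They list a false discovery rate (FDR) for each stretch of bases, and bases with an FDR of 0.001 or less were counted. In the promoter windows Nab2 had 2232 such bases in replicate 2 and 1289 in replicate 1, and Egr2 had 1161 in replicate 2 and 750 in replicate 1. Egr1 had 1126 in replicate 2 and 655 in replicate 1, and Egr4 had 618 in replicate 2 and 321 in replicate 1. Egr3 had 2202 in replicate 2 and 134 in replicate 1. This ratio of 16.4 was larger than that of 97.9% of the 11438 genes with such bases in both, whose median was 1.401. The ratio for the other 4 genes ran from 1.55 to 1.92. Nab1 had 878 in replicate 2 and 0 in replicate 1, where 326 bases had an FDR of 0.05 or less and the lowest log10 FDR was -2.35, against -8.44 in replicate 2.

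Bases at this FDR were also counted over whole gene bodies. The promoter windows inside a gene, also those of internal starts, are part of its body here. The body shares therefore partly repeat the promoter counts above. The share of gene body bases at an FDR of 0.001 or less was 46.2% for Egr4, 35.2% for Egr3, 31.5% for Egr2 and 26.7% for Egr1 in replicate 2. In replicate 1 it was 3.56% for Egr4, 0 for Egr3, 15.7% for Egr2 and 12.5% for Egr1. Nab2 had 53.2% in replicate 2 and 31.1% in replicate 1, and Nab1, the one long gene of the 6, had 2.67% and 0. Short genes give a promoter more weight, so the values were also set beside the 7774 protein-coding genes of at most 10 kb. Of these, 97.4% had a smaller share than Egr4 in replicate 2, 96.1% than Egr3, 95.3% than Egr2, 94.1% than Egr1 and 98.1% than Nab2. In replicate 1 the values were 76.6% for Egr4, 94.6% for Egr2, 92.7% for Egr1, and 98.0% for Nab2, and Egr3 had no such bases. This limit on gene length was chosen after the values were seen. The replicates thus gave like ranks for Egr1, Egr2 and Nab2 and unlike ones for Egr3 and Egr4.

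**Figure D3:**
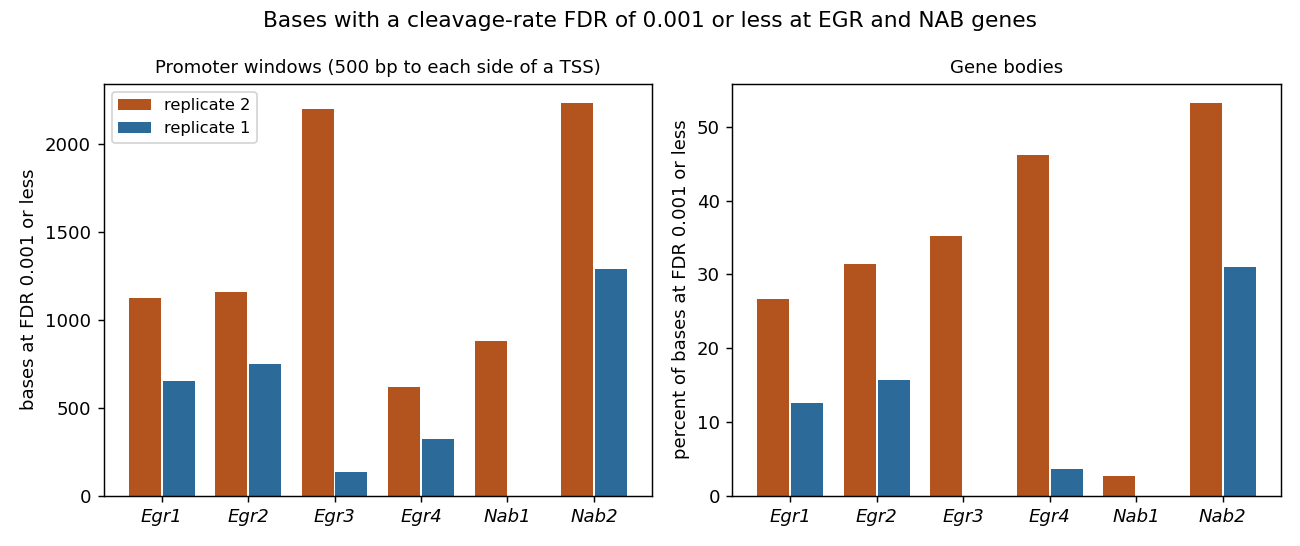
Bases with a cleavage-rate FDR of 0.001 or less in the promoter windows (left, number of bases) and as a share of the gene body (right, percent), in replicate 2 and replicate 1. Gene bodies include the promoter windows that lie inside them. The Egr3 bars are 2202 and 134 bases on the left and 35.2% and 0 on the right. The promoter gap between replicates is the widest for Egr3 among the 6 genes, and the gene body gap is the widest for Egr4, at 46.2% and 3.56%.

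The peaks inside Egr3 and Egr4 were weak and in replicate 2 alone. Within Egr3 replicate 2 had 5 peaks with signals from 0.709 to 1.12 (percentiles 22.2 to 47.2), of which the longest spanned 1077 bp and held 13 footprints. Within Egr4 it had 4, with signals from 0.718 to 1.06, and none held a footprint. In replicate 1 neither list had a peak in either gene body other than the Egr4 promoter peak, which overlaps its start.

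Footprints in the 6 windows numbered 274 in replicate 2 and 103 in replicate 1. The own promoters held 91 in replicate 2 and 36 in replicate 1, the distal parts 140 and 41, and promoters of neighbours 43 and 26. Footprints per kb of promoter window were 9.85 for Egr3, 8.99 for Egr1, 7.47 for Nab2, 6.99 for Egr4, 4.45 for Egr2 and 1.48 for Nab1 in replicate 2. In replicate 1 they were 0.788 for Egr3, 3.50 for Egr1, 5.52 for Nab2, 2.00 for Egr4, 2.05 for Egr2 and 0.591 for Nab1. The medians over open genes were 2.59 in replicate 2 and 1.97 in replicate 1. The median of the 6 genes in replicate 2, 7.23, was above 92.6% of open genes, and that of the 5 open ones in replicate 1, 2.05, above 53.7%.

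**Figure D4:**
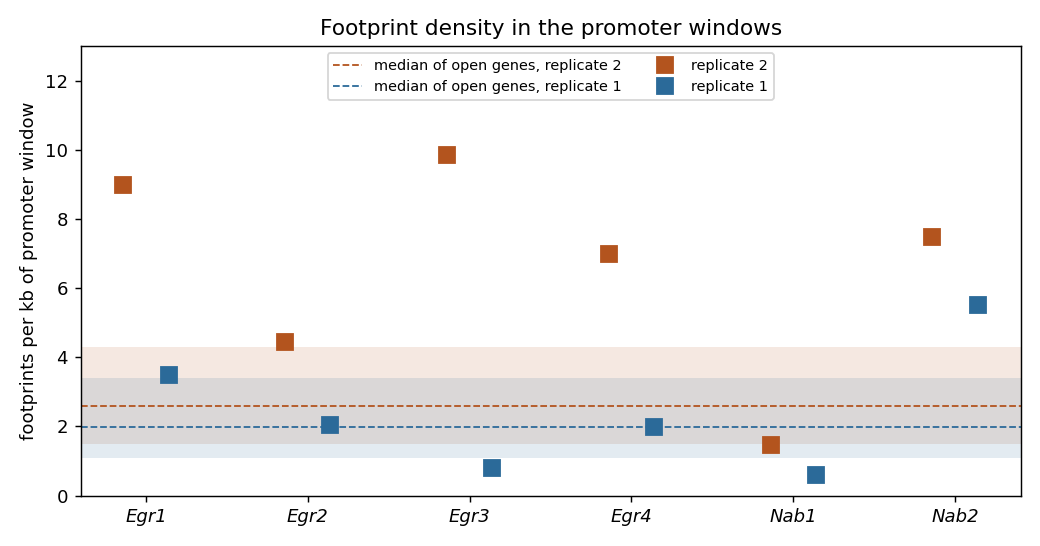
Footprints per kb of promoter window (y axis) for each gene in replicate 2 and replicate 1, with medians (dashed) and quartile bands over all protein-coding genes with a promoter peak. In replicate 2 every gene but Nab1 lies above the upper quartile, and in replicate 1 only Egr1 and Nab2 do.

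Footprint calls were also compared between the replicates. Of the 36 own-promoter footprints of replicate 1, 19 (52.8%) overlapped a footprint of replicate 2, where 56.6% of all replicate 1 footprints near a TSS did. Of the 91 of replicate 2, 19 (20.9%) had a partner, where 35.6% of all did. Egr1 had 5 of 18 with a partner in replicate 2 and Egr3 1 of 25. The difference from all footprints was not tested. Of the own-promoter footprints, 91.2% lay in a shorter-list peak in replicate 2 and 63.9% in replicate 1. Over all footprints near a TSS it was 78.1% in replicate 2 and 76.7% in replicate 1.

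Promoters of the wider pathway were read from 5 lists. In the SRF and MAPK route that switches on EGR genes, 12 of 13 listed promoters were open in both libraries. The highest were Map2k1 (9.19 in replicate 2 and 4.28 in replicate 1), which encodes the kinase MEK1, Rps6ka5 (8.70 and 3.51), Mrtfa, an SRF cofactor (8.17 and 3.57), and Creb1 (7.95 and 3.55). Elk3, an ETS factor that acts with SRF, had none. Of 13 NuRD genes 12 were open in both, led by Gatad2a (10.2 in replicate 2 and 4.64 in replicate 1), Gatad2b, Mbd3 and Rbbp4, and Mta1 had no promoter peak. The medians over the open genes were 5.51 in replicate 2 and 2.97 in replicate 1 for the SRF and MAPK list, and 4.10 and 2.49 for NuRD. Over all protein-coding genes with a promoter peak the median was 3.505 in replicate 2 (quartiles 1.98 and 5.20). In replicate 1 it was 2.26 (quartiles 1.52 and 3.07). Both NuRD medians lay within these quartiles.

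Among 8 EGR targets of neurons, 6 were open at the promoter in both libraries, with Arc, a synaptic immediate early gene, at 5.99 in replicate 2 and 2.98 in replicate 1. Cdk5r1, the activator of the kinase CDK5, and Ngfr, the low-affinity neurotrophin receptor, had one in replicate 2 alone. Of 5 EGR2 targets of Schwann cells, the myelin-forming cells of peripheral nerve, 1 was open in both replicates (Prx, at 3.31 in replicate 2 and 2.18 in replicate 1), 2 in replicate 2 alone (Pmp22 and Mbp) and 2 in neither (Gjb1 and Mag). Sox10, a Schwann cell marker that other glia share, had no promoter peak in either replicate. Of the 5 related zinc finger genes Sp1, Klf9, Sp4 and Klf4 were open in both, and Wt1, whose protein binds a site like that of EGR1, in neither. All these counts stand beside the 50.8% of protein-coding genes open in both replicates.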

How the data were processed

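The authors deposited, for each library, 2 peak lists with a read-depth normalized signal per peak, a footprint list whose score is 0.01 in every row, and a cleavage rate table whose p-value column is an FDR that ends at 0.05. Coordinates are mm10, per the labels, and each file derives from alignments of 1 library, per the deposited text listing. No source used here names the aligner or the callers. Members and gene lists were chosen with earlier results of these data known, and all 6 members are named. A promoter peak overlaps 500 bp to each side of a TSS of GENCODE M21 by at least 1 bp, and a shared peak has an overlap of 1 bp or more with a peak of its counterpart library. The list with fewer peaks per library is the main one. No group comparison exists, so no test was made. Distal peaks named are up to 3 shared ones per gene with the highest mean percentile, and genes of a list are up to 4 with the highest replicate 2 signal and up to 3 with no promoter peak. Other peaks, and list genes open in replicate 2 alone, were named after their values were seen. From the Schwann cell lists 1 gene is not reported here, and the counts leave it out. Overlap code was checked on simulated intervals. Python 3.11.15, pandas 2.3.3 and samtools 1.23.1 were used.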

Additional observations from a re-analysis of the deposited data

How the results depend on the processing

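Of 37 alternatives computed, 24 left the value within 1.5 times (or 1 SD over genes for the signal ratio) and 13 moved it further. Only the signal ratio has a direction that could turn, since the other results are counts. The direction of its median did not turn, but that of Egr3 alone did, to -0.23 with the mean over promoter peaks. Leaving out a replicate gave 5 to 6 genes with a promoter peak and 13 to 36 distal peaks. The 12 shared distal peaks became 21 with 100 kb flanks, 23 with the longer list and 1 with the highest 50% of peaks by signal (upstream of Egr3). The longer list raised the peaks in the windows to 58 in replicate 1. The highest 50% of peaks left 37 in replicate 2 and 11 in replicate 1, and equal list lengths left 36 in replicate 2. Inside shorter-list peaks 59 footprints remained in replicate 1. The mean over promoter peaks gave a median log2 ratio of 0.26. Around the promoter peaks of replicate 2 (300 bp) EGR sites were found for 3 genes, CCAAT for 2 and the E-box for 2, each against 1 in the fixed windows, and the E-box genes were Nab1 and Nab2 in place of Egr2. No paired analysis was possible because there is 1 group. Peak counts followed list length, and 2 libraries allow only a description.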

Other observations

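EGR sites (GCGNGGGCG) were counted over all promoter peaks. In replicate 2 they were found in 2352 of 22301 promoter peaks (10.55%) and in replicate 1 in 1590 of 15817 (10.05%). Of 2756 sites in replicate 2, 1279 (46.4%) had their centre in a footprint, where footprints covered 15.2% of the bases of these peaks. In replicate 1 it was 750 of 1819 (41.2%), where footprints covered 13.9%. Other zinc finger proteins bind like letters, and whether any protein was bound at these sites was not measured. No other motif was counted in this way. For the 15 own-promoter peaks of Egr2, Egr4, Nab1 and Nab2 in replicate 2, the 300 bp around each peak midpoint were searched. The site lay in this stretch for 4 peaks, of Egr4, Nab1 and Nab2, and for 10.6% of all promoter peaks. For shorter peaks the stretch includes bases outside the peak. The RefSeq window of Egr4, which spans nearly all of the stretch around its stronger peak, held no EGR site. The other Egr4 promoter peak was 55 bp long, with a signal of 0.718 and 0 footprints in replicate 2.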
